A study of Brassica napus with 6 samples.

Results

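HSPRO2 encodes a nematode resistance protein-like protein, and 6 copies of its gene were found among the 3248 genes that the authors listed as different between long and short siliques of rapeseed (Brassica napus). The copies were selected on the authors' contrast of the pools, since the table holds only genes called in it. A copy was taken when the table named HSPRO2 in a description or gave it the Arabidopsis locus AT2G40000, and all 6 met both conditions. The tissue was the silique wall, which is the outer layer of the pod, taken 15 days after flowering. The long pool mixed walls of 12 long-silique accessions and the short pool those of 11 short-silique accessions, all from 1 association population, with 3 libraries for each pool. A pool gives the average of its accessions, which were not analysed singly here, and the labels do not say that its libraries came from separate plants, so the spread between libraries may be technical. In bulk tissue, fewer cells that make a transcript and less of it per cell cannot be told apart.

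HSPRO2 is the Arabidopsis relative of a sugar beet gene that confers resistance to a cyst nematode. In Arabidopsis the protein binds AKINbetagamma, a subunit of SnRK1, the protein kinase that senses low energy and sugar starvation. It also contributes to basal resistance against the bacterium Pseudomonas syringae, and its transcript responds to salicylic acid and to several stresses. Rapeseed carries the A subgenome of Brassica rapa and the C subgenome of Brassica oleracea, so a gene with 1 Arabidopsis locus can have copies in both.

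Of the 6 copies, 3 lie on the A and 3 on the C subgenome. Positions are those of the deposited table on the Darmor reference, whose release is not given in the sources used here. BnaA04g22680D lies on A04 (17016439 to 17017704), BnaA05g05590D on A05 (2927765 to 2929024) and BnaA03g56550D on A03_random (772613 to 773983). BnaC03g22390D lies on C03 (12284161 to 12285547), and both BnaC04g56750D (4322724 to 4324138) and BnaC04g53300D (877064 to 878326) lie on C04_random. The random sequences hold scaffolds assigned to a chromosome without a place on it. The genomic spans of the 6 copies run from 1260 to 1415 bases. For each copy the length implied by its counts, its FPKM and the library totals was between 0.9996 and 1.001 times this span. The values are thus per base of the whole span. Most genes used to recover the library totals did not match their span in this way. Only 27 of 225 did in long replicate 1 and 56 of 343 in short replicate 2. Introns were thus not counted in throughout the table, and the copies belong to the minority whose whole span was used. Their gene models were not checked for introns. The table classed all 6 as not assigned to a known function.

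Because the copies were chosen by that contrast, their long over short values are descriptions, without a test. In the authors' deposited table the log2 fold change lay between -1.96 for BnaA05g05590D and -1.30 for BnaC04g53300D, and the FDR between 1.88e-19 for BnaC04g56750D and 5.48e-05 for BnaA03g56550D. The table reaches an FDR of 0.0499 and an absolute log2 fold change of 1. By absolute log2 fold change the copies stood between percentiles 38.7 (BnaC04g53300D) and 74.8 (BnaA05g05590D) of the listed genes. Copies outside the table were not analysed here. The authors' p-values and FDR imply 65264 tested genes, of which 4.98% are listed and 3.27% are listed as lower in the long pool.

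Recovered library totals were 22892442 to 30259269 reads in the long pool and 25483275 to 29256555 reads in the short pool. Every copy was detected in every library, with 12 to 110 counts in the long and 32 to 247 counts in the short libraries. Summed over the 6 copies, HSPRO2 stood at 6.73, 8.13 and 8.27 FPKM in the long libraries, against 27.82, 23.92 and 20.79 FPKM in the short libraries. FPKM are the authors' counts scaled to gene length and library total. The highest long library was thus below the lowest short library. The means were 7.71 ± 0.852 FPKM in long and 24.2 ± 3.52 FPKM in short libraries (SD, n = 3 each), and the log2 fold change of the sum, long over short, was -1.64.

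**Figure D1:**
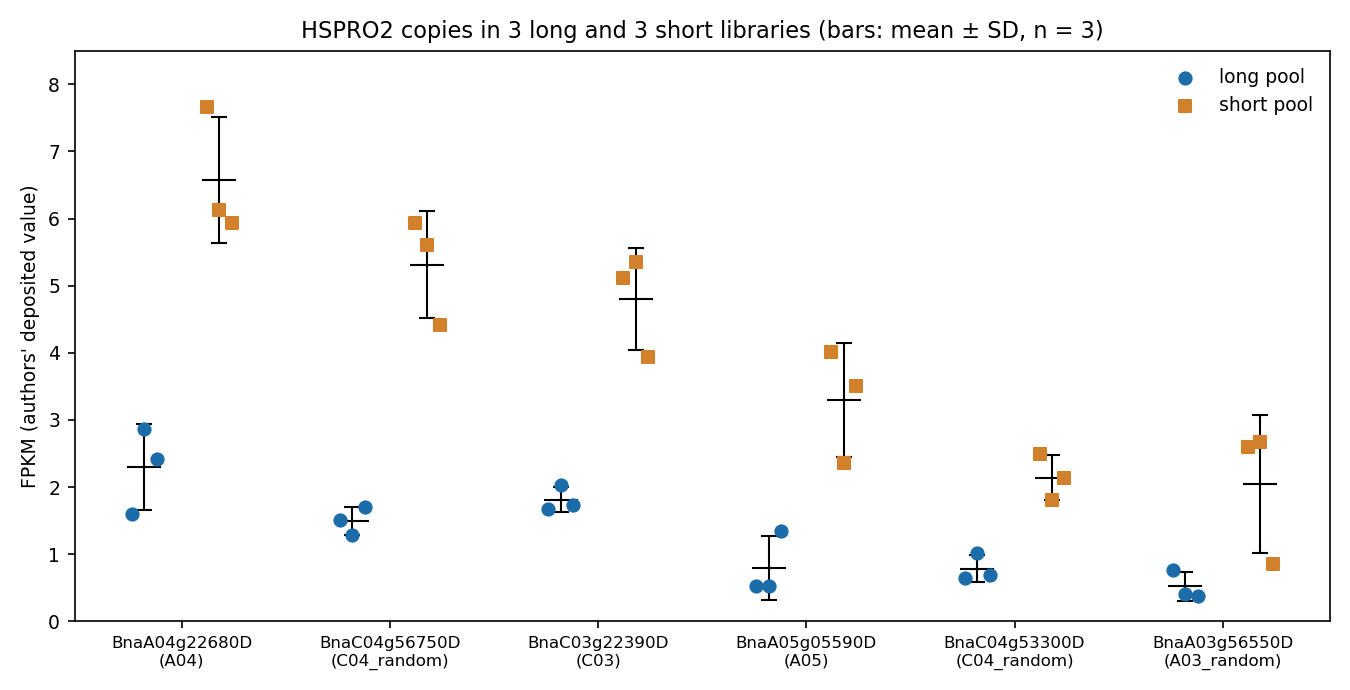
FPKM of the 6 HSPRO2 copies (x axis, ordered by mean level) in the 3 long libraries (blue circles) and the 3 short libraries (orange squares), with the mean and SD of each pool (n = 3) as black bars. The pools do not overlap for any copy, and the gap is narrowest for BnaA03g56550D, where the highest long library is at 0.77 and the lowest short library at 0.86 FPKM.

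Copy by copy, the 3 with the highest levels were BnaA04g22680D, BnaC04g56750D and BnaC03g22390D. BnaA04g22680D had 1.60, 2.87 and 2.42 FPKM in the long libraries and 7.66, 6.13 and 5.94 FPKM in the short libraries. Long replicate 1 was the lowest of its libraries, and all 3 short libraries lay above the long ones. Its fitted log2 fold change was -1.51 ± 0.25 (SE, edgeR).

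BnaC04g56750D had 55 counts in each of the long libraries (1.51, 1.28 and 1.70 FPKM), against 214, 232 and 169 counts in the short libraries (5.93, 5.6 and 4.41 FPKM). The long libraries were close together and far below the short ones. Its log2 fold change was -1.83 ± 0.24 (SE, edgeR). BnaC03g22390D had 1.68, 2.03 and 1.73 FPKM in the long libraries and 5.12, 5.35 and 3.94 FPKM in the short libraries. The log2 fold change was -1.40 ± 0.24 (SE, edgeR). It too had its lowest short value in replicate 3, and the 2 pools stayed apart.

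The other 3 copies were weaker. BnaA05g05590D had 0.52, 0.52 and 1.35 FPKM in the long libraries, against 4.02, 2.36 and 3.51 FPKM in the short libraries. Long replicate 3 was the library nearest to the short pool. Its log2 fold change, the lowest of the 6, was -2.06 ± 0.37 (SE, edgeR). With 1 library omitted it ran from -2.64 (without long replicate 3) to -1.82 (without long replicate 2). BnaC04g53300D had 0.65, 1.02 and 0.69 FPKM in the long libraries, against 2.49, 1.81 and 2.13 FPKM in the short libraries. The libraries nearest to each other were long replicate 2 and short replicate 2, with 39 and 67 counts, whose exact 95% Poisson intervals in CPM (counts scaled to the library total, with no length) nearly meet, at 0.917 to 1.76 and 1.77 to 2.91 (counting error only). The log2 fold change was -1.43 ± 0.31 (SE, edgeR).

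BnaA03g56550D had 0.77, 0.41 and 0.38 FPKM in the long libraries, against 2.60, 2.67 and 0.86 FPKM in the short libraries. Short replicate 3 stood apart from the other short libraries and next to the long pool. Long replicate 1 and short replicate 3 held 27 and 32 counts, and their exact 95% Poisson intervals in CPM, 0.691 to 1.53 and 0.807 to 1.67, overlap. The log2 fold change was -1.97 ± 0.44 (SE, edgeR), the largest error of the 6. With 1 library omitted it ran from -2.35 (without long replicate 1) to -1.73 (without short replicate 2). It was -2.34 without short replicate 3.

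Across the copies the fitted log2 fold changes ran from -2.06 to -1.40 with a median of -1.67, which is 2.64-fold to 4.17-fold lower in the long pool. Over all 2574 fitted genes the median was -1.22, and that of the fitted genes below 0 was -1.55, with quartiles of -2.18 and -1.24. All 6 copies passed the edgeR thresholds (adjusted p of at most 0.05 over the 65264 genes and p of at most 0.005), against 66.6% of the fitted genes called in either direction and 43.5% called lower. In all 6 the long libraries lay below the short ones without overlap, which held for 62.2% of listed genes. The copies were listed for this contrast, so neither count is evidence beyond the listing. The calls of BnaA03g56550D and BnaC04g53300D each held in only 2 of 6 fits with 1 library omitted, those without long replicate 1 or short replicate 3 for the first of them and without long or short replicate 2 for the other. That of BnaA05g05590D ended without long replicate 1.

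The scaling sets the size of these values. TMM over the listed genes, which assumes mostly unchanged genes, raised the fitted log2 fold changes by 0.78 in the median, and the 6 copies then lay between -1.29 and -0.62, with only BnaC04g56750D called. DESeq2 size factors gave a shift of 0.93 and values between -1.15 and -0.46 for the copies. Under them edgeR called 0 copies, whereas DESeq2 on the recovered totals called 6. With the size factors 4 copies had an unadjusted edgeR p under 0.05, a limit not counted over all fitted genes. Over all genes, 330 were called lower with TMM and 278 with DESeq2 size factors. DESeq2 on the recovered totals called 1111 lower. All 6 copies stayed below 0 under each scaling tried. With fitted values of -1.40 or lower and a largest median shift of 0.93, their sign had no room to change. Since the table lists changed genes alone, library totals recovered from counts and FPKM were preferred.

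**Figure D2:**
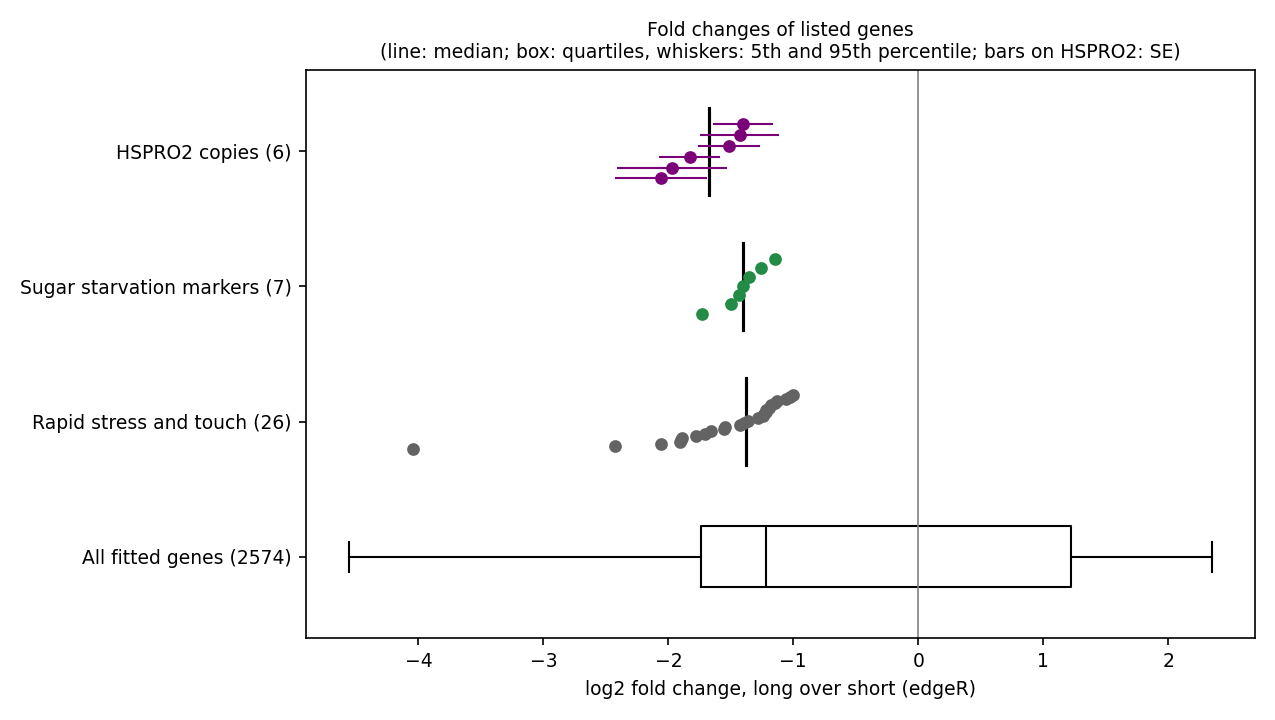
Log2 fold change, long over short (x axis, edgeR), of the 6 HSPRO2 copies with their SE, of 7 sugar starvation markers and of 26 rapid stress and touch response genes (points; vertical line, median), above a box of all 2574 fitted genes. The copies lie between -2.06 and -1.40, within the whiskers of all fitted genes at -4.56 and 2.35.

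How the copies stand to each other within a library was not used to choose them, and could be tested. The difference between 2 copies was taken in log2(FPKM + 0.1) within each library, for all 15 pairs, with an exact two-sided sign-flip permutation test over the 6 libraries. The smallest p this design allows is 0.03125, reached only when all 6 libraries have the same sign. Each of BnaA04g22680D, BnaC04g56750D and BnaC03g22390D was above each of BnaA05g05590D, BnaC04g53300D and BnaA03g56550D in all 6 libraries, long and short. BnaA04g22680D was also above BnaC04g56750D in all 6, which makes 10 pairs (exact permutation p = 0.03125, Benjamini-Hochberg adjusted p = 0.0469 over 15 pairs, for each of them). The test takes the 6 libraries as independent, but they come from 2 pools and may differ only technically. The pairs share copies, and most of the 10 reflect the same split between higher and weaker copies. The adjusted p depends on how many pairs reach the smallest p.

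The widest of these differences was that of BnaA04g22680D over BnaA03g56550D, at 1.87 ± 0.74 (SD, n = 6 libraries) on the log2 scale. The difference of BnaA04g22680D over BnaC04g53300D was more even between libraries, at 1.5 ± 0.20 (SD, n = 6). BnaC03g22390D over BnaA05g05590D was less even, at 0.88 ± 0.69 (SD, n = 6), and ranged from 0.16 in short replicate 3 to 1.78 in long replicate 2.

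The remaining 5 pairs did not pass. BnaA04g22680D was above BnaC03g22390D in 5 of 6 libraries, by 0.37 ± 0.26 (SD; exact permutation p = 0.0625, adjusted p = 0.0852). BnaC04g56750D and BnaC03g22390D differed by -0.06 ± 0.30 (SD; exact permutation p = 0.812, adjusted p = 0.812), being in turn higher in 3 of 6 libraries each. Among the 3 weaker copies no order held: BnaA05g05590D was above BnaC04g53300D and above BnaA03g56550D in 4 of 6 libraries each, and BnaC04g53300D above BnaA03g56550D in 3 of 6 (exact permutation, adjusted p between 0.273 and 0.435). The authors used uniquely mapped reads, so reads shared by near-identical copies were not counted, and the level of a copy also depends on how much of it is unique. That part was not tested.

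**Figure D3:**
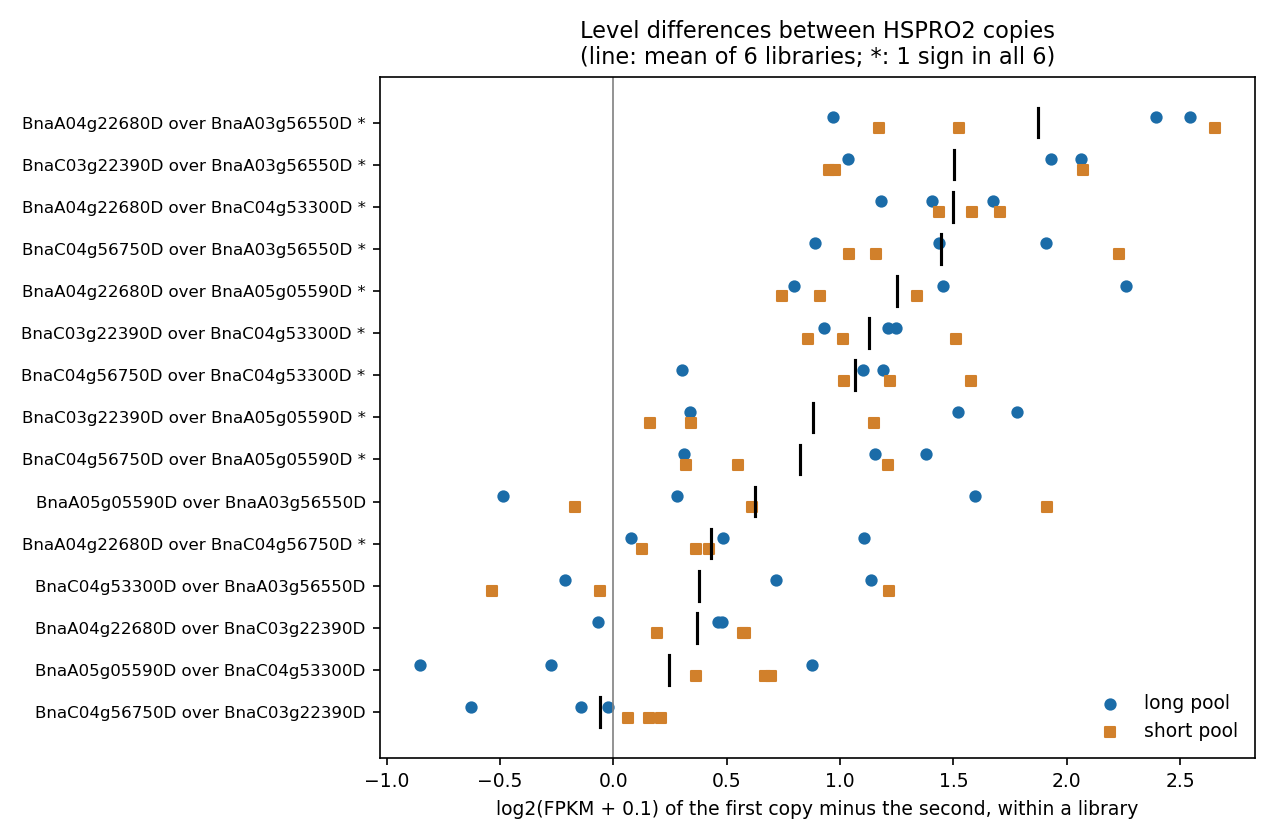
Difference in log2(FPKM + 0.1) between the first and the second named HSPRO2 copy within each library (x axis), for all 15 pairs (y axis), in the long (blue circles) and short (orange squares) libraries; the black line is the mean of 6 libraries. The 10 pairs marked with * have 1 sign in all 6 libraries, from BnaA04g22680D over BnaA03g56550D (1.87) down to BnaA04g22680D over BnaC04g56750D (0.43).

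By subgenome, the copies on A summed to 3.61 ± 0.650 FPKM in long and 11.9 ± 2.09 FPKM in short libraries (SD, n = 3 each). Those on C summed to 4.10 ± 0.246 FPKM in long and 12.3 ± 1.59 FPKM in short libraries (SD, n = 3 each). The C copies held 57.1%, 53.3% and 49.8% of the HSPRO2 FPKM in the long libraries and 48.7%, 53.3% and 50.4% in the short libraries. The 2 pools overlapped in this share, and the means of 53.4% in long and 50.8% in short libraries differed by 2.57 percentage points. The SD was 3.62 points within the long pool and 2.36 points within the short pool. Neither subgenome held a clear majority. The fitted log2 fold changes were -1.51, -1.97 and -2.06 for the A copies and -1.40, -1.43 and -1.83 for the C copies, so that their ranges overlapped too.

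The share of every single copy overlapped between the pools. BnaA04g22680D, the strongest, held 29.4% ± 5.77 of the HSPRO2 FPKM in long and 27.2% ± 1.49 in short libraries (SD, n = 3 each), and was the highest copy in 5 of 6 libraries. In long replicate 1 BnaC03g22390D was higher, at 1.68 against 1.60 FPKM. BnaA03g56550D, the weakest, held 7.03% ± 3.83 in long and 8.21% ± 3.65 in short libraries (SD, n = 3 each). Its share ran from 4.59% to 11.4% in the long and from 4.14% to 11.2% in the short libraries. The range within each pool was wider than the difference between their means.

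**Figure D4:**
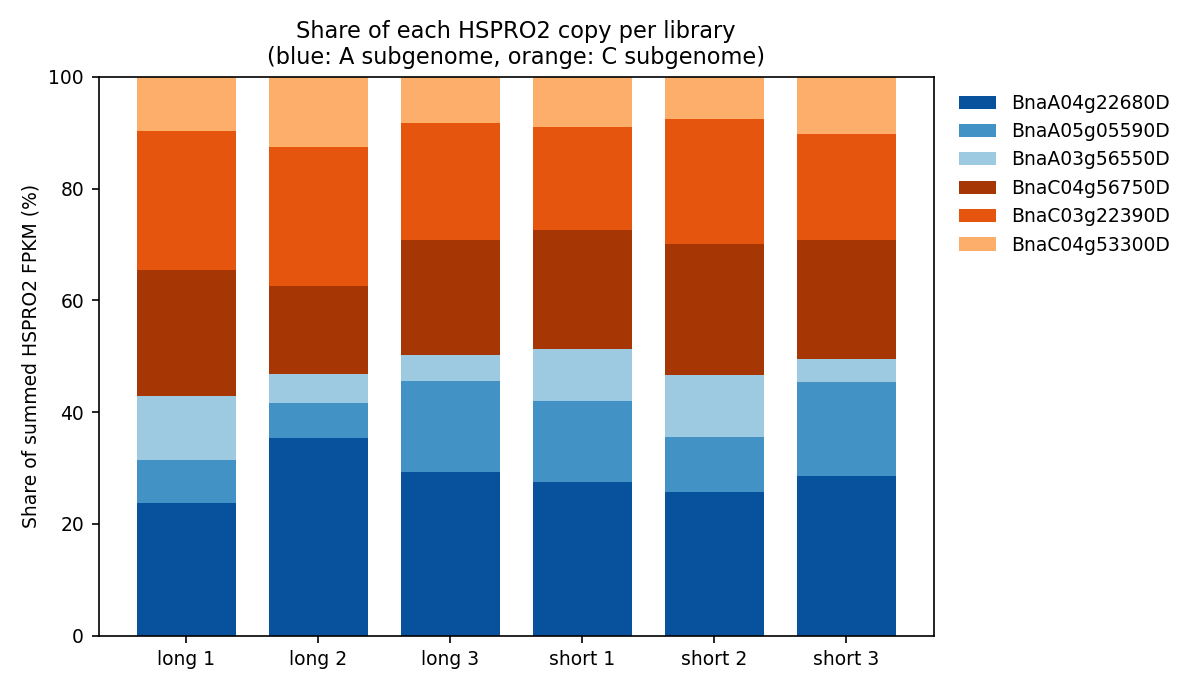
Share of each HSPRO2 copy in the summed HSPRO2 FPKM (y axis, %), for each long and short library (x axis), with the A subgenome copies in blues and the C subgenome copies in oranges. The A copies together hold between 42.9% and 51.3% in every library.

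In mean FPKM over all libraries the copies stood between percentiles 50.9 and 83.0 of the listed genes, in the upper part of a table with many weakly expressed genes. By the authors' p they ranked from 211 for BnaC04g56750D to 1574 for BnaA03g56550D of 3248. The 3 copies with the highest levels also had the 3 lowest ranks.

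Genes that share a pathway with HSPRO2 were looked up by Arabidopsis locus. HSPRO1, the nearest relative of HSPRO2, had no listed gene. None of the 7 loci of the SnRK1 complex (KIN10, KIN11 and their beta and gamma subunits) was listed, and none of 17 loci of salicylic acid signalling and basal resistance, among them NPR1, PR1, EDS1, PAD4 and WRKY53. Genes of these loci that are not in the table were not analysed here.

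Of 11 loci used as markers of SnRK1 activity and sugar starvation, 6 had listed genes, 8 in all, and the 8 were lower in the long pool, as were 65.6% of all listed genes. Of the 7 that could be fitted, 5 were called lower (edgeR, against 43.5% of fitted genes), and the median log2 fold change was -1.40, against -1.55 over the fitted genes below 0. These genes too are in the table because the authors called them in this contrast, so that calls and values of this and the next list are descriptions and no test is reported for them. TPS9 (BnaC08g06450D), a trehalose-phosphate synthase-like gene, had 2.42, 2.46 and 2.59 FPKM in the long libraries and 8.47, 6.25 and 5.49 FPKM in the short libraries. The pools did not overlap, and the log2 fold change was -1.44 ± 0.20 (SE, edgeR).

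TPS11 (BnaC09g51060D), of the same family, averaged 1.30 ± 0.312 FPKM in long and 3.10 ± 0.210 FPKM in short libraries (SD, n = 3 each). Its log2 fold change was -1.26 ± 0.23 (SE, edgeR). BZIP1 (BnaC07g27220D), a transcription factor of the low-energy response, averaged 2.22 ± 0.405 FPKM in long and 6.31 ± 1.35 FPKM in short libraries (SD, n = 3 each). Here the log2 fold change was -1.50 ± 0.32 (SE, edgeR). Summed over the 8 genes, the level was 16.8, 14.8 and 17.7 CPM in the long libraries and 50.1, 38.7 and 40.2 CPM in the short libraries. The pools did not overlap, and short replicate 1 was highest, as it was for summed HSPRO2.

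Of 39 loci that respond rapidly to touch, wounding or other stress in Arabidopsis, 17 had listed genes, 31 in all. All 31 were lower in the long pool, and of the 26 fitted 20 were called lower and 0 higher (edgeR, against 43.5% and 23.1% of fitted genes). Their median log2 fold change was -1.38, against -1.55 over the fitted genes below 0 and -1.22 over all fitted genes. Several loci had more than 1 listed copy, so members are not independent. In an example chosen after its values were seen, the 4 copies of the zinc finger gene ZAT10 had log2 fold changes of -1.31 to -1.16 in the authors' deposited table. WRKY33 (BnaA03g17820D), a regulator of defence against fungi, had 1.49, 0.88 and 1.5 FPKM in the long libraries, against 3.68, 6.04 and 4.72 FPKM in the short libraries. The pools did not overlap, and the log2 fold change was -1.91 ± 0.27 (SE, edgeR).

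SZF1 (BnaA05g28580D), a salt-inducible zinc finger gene, was more strongly expressed, with 10.4 ± 0.917 FPKM in long and 23.0 ± 4.45 FPKM in short libraries (SD, n = 3 each), and a log2 fold change of -1.15 ± 0.18 (SE, edgeR). RRTF1 (BnaA08g11220D), a redox-responsive transcription factor gene, had 3 counts over the long libraries and 57 over the short libraries. The ratio, short over long, was 18.3 (95% exact counting interval 5.96 to 91.4). The 31 genes summed to 87.6, 93.9 and 94.4 CPM in the long libraries and 165, 262 and 206 CPM in the short libraries. Here short replicate 2 was highest, whereas summed HSPRO2 was highest in short replicate 1.

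The calls of both lists depend on the scaling and the number of libraries. With TMM edgeR called 0 of the 7 starvation genes lower and 2 of the 26 stress genes (3 and 9 had an unadjusted p under 0.05). Of all 2574 fitted genes it called 330 lower. With DESeq2 size factors it called 0 and 1 (1 and 8 had an unadjusted p under 0.05), against 278 of all 2574. The 330 and 278 are adjusted calls, and unadjusted p-values were not counted over all fitted genes. DESeq2 itself, on the recovered totals, called 4 of 8 starvation and 21 of 31 stress genes, having no filter on low counts. Over all listed genes it called 1111 lower. All fitted members of both lists stayed below 0 under each scaling. This is no separate evidence. The fitted values were all -1.01 or lower and the largest median shift was 0.93, so their sign had little room to change. Leaving out 1 library gave 2 to 6 called starvation genes and 7 to 17 called stress genes, of 26 to 28 fitted, the lowest without long replicate 1 in both. Over all fitted genes, 736 to 952 were called lower without 1 library. The replicate block gave 3 and 13, against 821 called lower over all fitted genes.

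Markers of other tissues were looked up as well. None of the 7 loci of silique wall patterning and none of 11 seed loci had a listed gene, so these loci do not speak to the labelled tissue. Of 6 flower loci only PI was listed, with 7 counts over the long libraries against 29 over the short ones. By its description the table also holds 1 seed storage gene, cruciferin D (BnaA09g50780D), at 1, 2 and 0 counts in the long libraries against 105, 54 and 111 in the short libraries. Both were higher in the short pool, as HSPRO2 was, and their part in the HSPRO2 difference was not tested.

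The 6 listed genes with an Arabidopsis locus and a mean of at least 1 CPM whose profile was most like that of summed HSPRO2 were found by the root mean square distance between centred log2(CPM + 0.5) values over the 6 libraries. All profiles come from the same 6 libraries, and every candidate was listed for the contrast between the pools. The candidates were not limited by direction. The distance is a description without a test. The nearest was BnaAnng12980D (AT1G54520), without a described function, at a distance of 0.0980, against a median of 0.455 over 1188 candidates. It had 2.02, 2.68 and 2.58 CPM in the long libraries and 8.01, 7.83 and 7.05 CPM in the short libraries. Next came BnaA01g13540D, a UDP-glucose 4-epimerase gene that acts in the supply of wall sugars, at 0.109, and BnaA08g22690D, a Nudix hydrolase gene, at 0.118.

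The other 3 were BnaCnng63520D, described as a beta carbonic anhydrase, at 0.119, BnaA05g20490D, the stress-related zinc finger gene AZF2, at 0.126, and BnaCnng60000D, described as a mitochondrial alternative oxidase, at 0.127. The fitted log2 fold changes of the 6 genes lay between -1.99 for BnaA05g20490D and -1.49 for BnaCnng63520D. The single HSPRO2 copies, which enter the sum, had distances between 0.134 for BnaC04g56750D and 0.448 for BnaA03g56550D.

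Within 100 kb of the copies 7 other listed genes were found, 4 of them lower and 3 higher in long siliques, against 65.6% of all listed genes lower. Of 4 listed neighbours of BnaC04g56750D, 1 was higher and 3 were lower in long siliques. Among them EARLY FLOWERING 4 (BnaC04g56730D), a clock gene 16.5 kb away, had 0.457 ± 0.205 FPKM in long and 1.02 ± 0.0889 FPKM in short libraries (SD, n = 3 each), and was not called. Nor were the other 3, a pair of peroxidase genes (BnaC04g56610D and BnaC04g56590D, log2 fold changes of -1.32 and -1.25) and a vestitone reductase-like gene (BnaC04g56940D, 1.5).

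BnaC03g22390D had 1 listed neighbour 8.75 kb away, BnaC03g22360D, which has no described function and went the other way. It stood at 40.0 ± 7.86 FPKM in long and 7.0 ± 1.78 FPKM in short libraries (SD, n = 3 each). Its log2 fold change was 2.51 ± 0.22 (SE, edgeR). BnaA05g05590D had 1 neighbour that was lower, BnaA05g05640D at -1.37 ± 0.27, and BnaA03g56550D 1 that was higher, BnaA03g56350D at 1.37 ± 0.26 (SE, edgeR). Both were called, as was BnaC03g22360D, where 66.6% of all fitted genes were called in either direction. BnaA04g22680D and BnaC04g53300D had none in the table. Closeness on a random sequence need not be closeness on the chromosome.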

How the data were processed

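The series design text says that clean reads were aligned to Darmor and that unique alignments alone were quantified. The submitters' processing notes list DESeq2 and edgeR, while the aligner is not given in the sources used here. The authors deposited 1 table with whole-number counts, FPKM, a log2 fold change, p-values and FDR per gene, per the file headers; 59362 blank rows were left out.

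Library totals were recovered as counts over FPKM and span, from genes with at least 200 counts and 5 FPKM, taking the median of genes within 0.5% of the 95th percentile. Counts were fitted with edgeR 4.0.16 (R 4.3.3, quasi-likelihood, robust) on these totals after filterByExpr, adjusting over 65264 genes (Benjamini-Hochberg). Dispersions come from genes listed for their difference, so p-values may be too small. A floor of 3 counts in 1 library is 0.0991 to 0.131 CPM. Copies were compared on log2(FPKM + 0.1) (scipy 1.17.1).

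The members and gene lists were chosen with earlier results of these data known. Named were all copies, up to 3 genes per direction of each longer list by smallest p, all genes of short lists, the 6 most similar profiles and listed neighbours within 100 kb. The RefSeq table matched 0 gene IDs. Alternatives were other scalings, DESeq2 1.42.0, no filter, a replicate block, other pseudocounts and leaving out each library.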

Additional observations from a re-analysis of the deposited data

Results flagged for a closer look

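Of the 15 pairs of HSPRO2 copies, 1 had the same order in all 3 libraries of a pool and the opposite order in all 3 libraries of the other pool. BnaC04g56750D was below BnaC03g22390D in all 3 long libraries, by -0.26 on average in log2(FPKM + 0.1), and above it in all 3 short libraries, by 0.14. In long replicate 3 the difference was only -0.02. The difference between the pools was not tested.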

How the results depend on the processing

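The values long over short depend on the scaling. The median log2 fold change of the 6 copies, -1.67, became -0.89 with TMM, -0.73 with size factors from DESeq2 and -1.31 with the column sums of listed genes, and that of the summed copies, -1.64, became -0.86, -0.71 and -1.29. Copies called were 6, and 1 with TMM, 0 with DESeq2 size factors and 4 to 5 without 1 library. With DESeq2 size factors 4 copies had an unadjusted edgeR p under 0.05, a limit not counted over all fitted genes. Column sums and an adjusted p of at most 0.01 each left 4, without BnaA03g56550D and BnaC04g53300D. Of the fitted genes 1119 were called lower and 594 higher. With TMM these were 330 and 916, and with DESeq2 size factors 278 and 915, while column sums left 679 lower. An adjusted p of at most 0.01 left 1112 of 1713 calls, 365 of them higher. Leaving out 1 library gave 1109 to 1434 calls, 736 to 952 lower and 364 to 495 higher, with fewer samples; long replicates 1 and 2 mattered most (1109 and 1116 calls without them). Without 1 library the median of the copies and the log2 fold change of the sum (-1.75 to -1.54) stayed within 1 SD of the spread between libraries. The replicate block gave 1228 calls and a median of -1.68 for the copies, and ended the call of BnaC04g53300D. Same-numbered libraries had correlations of 0.041, 0.010 and 0.0059, the first being the highest of all pairs. Other pairs ran from -0.035 to 0.026, and long replicate 2 was closest to short replicate 3 (0.026). With values this small, pairing by number was not shown. The 10 pairs of copies with 1 sign were 10 with counts per span and with a pseudocount of 1, and 10 or 11 without 1 library, where the exact test on 5 libraries cannot pass. The C share difference was 2.57 percentage points, 0.731 without long replicate 1 and 4.35 without long replicate 3. Depth limits the weaker copies most, down to 12 counts in a library.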
